A study of Saccharomyces cerevisiae with 88 samples.

Results

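Anti-sense transcripts are RNAs made from the strand opposite a gene. The 402 annotated anti-sense transcripts of yeast were followed here through cross-linking of Nab3, cross-linking of RNA polymerase II (Pol II) and RNA-Seq. They were chosen as all features of the class anti-sense in the annotation that was deposited with the data, which holds 12454 features, and no measured value was used to choose them. Each was paired with the protein-coding feature on the opposite strand that it overlaps most. All 402 had such a partner, and the 402 partners were different genes. The study asked how protein-RNA contacts and transcription change within minutes after cells lose glucose. It used χCRAC, in which cells are cross-linked with UV light within seconds, a tagged protein is purified, and the RNA bound to it is sequenced. Yeast were grown in glucose medium without tryptophan, collected on filters and moved to the same medium without glucose, or with glucose as the control. Nab3 was measured in 2 time-courses without glucose and 1 control time-course, and Pol II, through its tagged subunit Rpo21, in 2 and 1. Total RNA was sequenced in 1 time-course of 7 libraries without glucose. These cells were of the background BY4741 (MATa, with ura3delta_0, met15delta_0, leu2delta_0 and his3delta_1). Pol II was also measured without glucose in a Nab3-FRB strain, of the background HHY168 (MATalpha, with RPL13A-2xFKBP12::TRP as the anchor and with tor1-1 and fpr1::NAT), in which rapamycin draws Nab3 out of the nucleus. There, 2 time-courses were given rapamycin before the shift and 2 were given ethanol, its solvent. A strain of the same background, with PMA1-2xFKBP12::TRP as the anchor and no tag on Nab3, gave 1 library each with and without rapamycin at 0 and 14 min. All these HHY168 cells carry the tor1-1 and fpr1 alleles, the ethanol cultures included. For Nab3 in glucose, the Megatron was used for 2 further libraries and the Vari-X-linker for 1, which are lamps of different output.

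Nab3 acts with Nrd1 and the helicase Sen1 in a complex that ends the transcription of many short non-coding RNAs and hands them to the nuclear exosome for trimming or decay. Nab3 recognizes UCUU and CUUG in RNA, and Nrd1 recognizes GUAA and GUAG. Yeast anti-sense RNAs often begin near the end of a gene, where the gap before the neighbouring gene is free of nucleosomes, and run back across the gene. Many are removed soon after synthesis and are best known by the decay pathway that removes them: CUTs by the nuclear exosome, XUTs by the cytoplasmic exonuclease Xrn1, and SUTs as the more stable class.

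The sequences below carry the Nab3 motifs of members on which the results turn. Each is the 60-base stretch, on the strand of the anti-sense transcript and opposite the coding sequence of the partner, that holds the most Nab3 motifs of that transcript. They were read from the RefSeq copy of the R64 genome and are written 5′ to 3′ as DNA, with each TCTT and CTTG (UCUU and CUUG in RNA) in capitals. A TCTTG holds both motifs and was counted as 2. Unit399, Unit97 and Unit14 are shown because Nab3 cross-linking to them rose without glucose, Unit183 and Unit45 because it fell, and Unit119, Unit154 and Unit400 because Pol II on them rose with rapamycin. Unit212 is shown because it moved against its partner, and Unit247 because the study names it.
Unit399, opposite NCE102, chrXVI:830377-830436, minus strand: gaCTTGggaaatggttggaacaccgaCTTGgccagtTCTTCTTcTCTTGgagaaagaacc
Unit97, opposite HIS1, chrV:265129-265188, plus strand: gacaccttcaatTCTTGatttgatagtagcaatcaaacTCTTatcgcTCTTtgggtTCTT
Unit14, opposite YBR071W, chrII:380813-380872, minus strand: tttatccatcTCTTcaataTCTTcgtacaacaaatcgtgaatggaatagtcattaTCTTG
Unit183, opposite SNL1, chrIX:321576-321635, minus strand: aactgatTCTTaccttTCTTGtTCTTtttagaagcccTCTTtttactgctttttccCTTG
Unit45, opposite ARF2, chrIV:216866-216925, minus strand: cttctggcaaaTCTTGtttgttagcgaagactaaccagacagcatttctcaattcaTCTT
Unit119, opposite RPS26A, chrVII:148233-148292, plus strand: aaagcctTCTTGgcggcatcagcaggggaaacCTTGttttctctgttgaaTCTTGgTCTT
Unit154, opposite SOD2, chrVIII:123318-123377, plus strand: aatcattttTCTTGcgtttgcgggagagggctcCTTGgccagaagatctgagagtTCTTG
Unit400, opposite SMX3, chrXVI:900363-900422, minus strand: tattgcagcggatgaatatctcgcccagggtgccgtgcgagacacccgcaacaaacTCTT
Unit212, opposite HMS2, chrX:705045-705104, minus strand: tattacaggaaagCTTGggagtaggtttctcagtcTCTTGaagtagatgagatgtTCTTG
Unit247, opposite POM33, chrXII:98305-98364, plus strand: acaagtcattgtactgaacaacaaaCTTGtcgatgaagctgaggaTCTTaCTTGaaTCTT

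The windows of Unit399, Unit119 and Unit183 hold 6 motifs each, a number that 9.8% of the members reached in some window of this length. Those of Unit97, Unit154 and Unit212 hold 5 (23.6% of members), and those of Unit14 and Unit247 hold 4 (50.8%). That of Unit45, on which Nab3 fell most, holds 3 (79.9%), below the median of 4 over the members. The best window of Unit400 holds 1, which 98% of members reached, so members with a large change did not all hold dense motifs there. Over whole transcripts, members held a median of 1.34 Nab3 motifs per 100 bases on their own strand and 0.951 on the other, and 293 of 402 held more on their own strand. CUTs held 1.65, XUTs 1.23 and SUTs 1.11. Protein-coding features held 0.850 on their own strand and 1.63 on the strand opposite. The density of the members was therefore below that of the strand opposite protein-coding features as a whole. Nrd1 motifs were also denser on the members' own strand, with 0.778 per 100 bases against 0.557 on the other. The other non-coding classes held about as many, with 0.808 in XUTs, 0.801 in SUTs and 0.779 in CUTs. A motif is a match of letters, not a measured site.

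The members were 193 to 6047 bases long, with a median of 1089. Of the 402, 322 lie opposite 1 protein-coding feature, 75 opposite 2 and 5 opposite 3. At the median, the partner overlapped 93.6% of the member and the member overlapped 84.7% of the partner. In 155 cases the anti-sense transcript ran over at least 90% of its partner, 143 began past the annotated 3′ end of the partner, 183 ended past its annotated 5′ end, and 67 did both. The annotation is layered: 217 members were covered over at least 50% of their length by an XUT on the same strand, 164 by a SUT and 17 by a CUT. In 260 cases any one of these did so, and reads there were counted for both features. On their own strand 302 members had no protein-coding feature, whereas 100 overlapped one and 37 of these over at least 50% of their length. Reads of those genes are counted for the member too, so such an overlap is named beside each result that it touches.

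Values are FPKM as deposited, that is fragments scaled to feature length and library size. Multiplied by the feature length, these values came in whole steps within each library, and the steps gave back the reads. The cross-linking libraries of the time-courses held 25776 to 934486 reads on features, with at least 1 read on 165 to 396 members, and the total RNA libraries held 7557054 to 17997400. The shallowest cross-linking library of these was Pol II time-course 1 at 1 min, and the shallowest of the Nab3-FRB strain was ethanol culture 1 at 2 min, with 47401 reads. Ribosomal RNA took 46.4% and 57.5% of the reads of Pol II time-course 2 at 0 and 8 min, and 5.95% to 16.6% in its other libraries and in time-course 1. Time-points are named by their nominal minute. The labels give 16 and 28 min for 14 and 20 min in Nab3 time-course 2. In the Nab3-FRB strain, rapamycin culture 1 was sampled at 10, 18 and 28 min for 8, 14 and 20 min, and ethanol culture 1 at 18 and 51 min for 14 and 40 min. The libraries of a time-course come from the same culture, and the labels do not say how separate the repeated time-courses were. The p-values therefore measure the spread between these libraries, which limma pools in part over features and which may be technical.

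In glucose, the anti-sense transcripts stood in Nab3 cross-linking between the CUTs and the mRNAs, and in total RNA they stood far below their partners. At 0 min the median Nab3 level over the 402 members was 5.35 and 4.34 FPKM in time-courses 1 and 2. The CUTs, which are classical Nab3 targets, were at 43.3 and 33.8, XUTs at 5.04 and 3.59, SUTs at 5.58 and 4.25, and protein-coding features at 1.78 and 1.13. The partners were at 2.43 and 1.65. The member was the higher of the pair in 60.9% and 59.7% of pairs. In Pol II the order within pairs was the other way round, with members at 7.45 and 4.37 and partners at 12.5 and 7.07 FPKM, and the member was higher in 43.8% and 39.3% of pairs. In total RNA the members were at a median of 2.44 FPKM and the partners at 11.05, and the member was higher in 29.9% of pairs. Across the 402 pairs, the total RNA levels of member and partner had a Spearman correlation of -0.30, whereas for Nab3 it was 0.05 and -0.03. The pairs share libraries and, where the spans overlap, length, and these values are descriptions. The strands were kept apart: PDC1, the main pyruvate decarboxylase, was at 4825 FPKM in total RNA, and Unit253 opposite it was at 1.85.

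The members with the highest Nab3 levels at 0 min were Unit183 (opposite SNL1, which encodes a co-chaperone of the nuclear envelope), Unit169 (opposite LIN1) and Unit219 (opposite YKL151C). Nab3 levels at 0 min were 372 and 415 FPKM on Unit183, 413 and 280 on Unit169 and 314 and 292 on Unit219 in the 2 time-courses. Unit169 holds the snoRNA snR71 within its span. The highest Pol II levels at 0 min, 589 and 468 FPKM, were on Unit87 opposite API2. Unit87 was also highest in total RNA at 900 FPKM, and it shares 201 bases with YDR524C-B on the same strand. Next in total RNA came Unit113, all of which lies within WWM1 on the same strand, at 181 FPKM, and Unit210, which shares 560 bases with SOD1, at 169 FPKM. The most abundant members in total RNA thus carried reads of genes on their own strand. Members with no such gene had a median of 2.09 FPKM there, and together took 0.280% of the reads, against 0.780% for all 402.

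**Figure D1:**
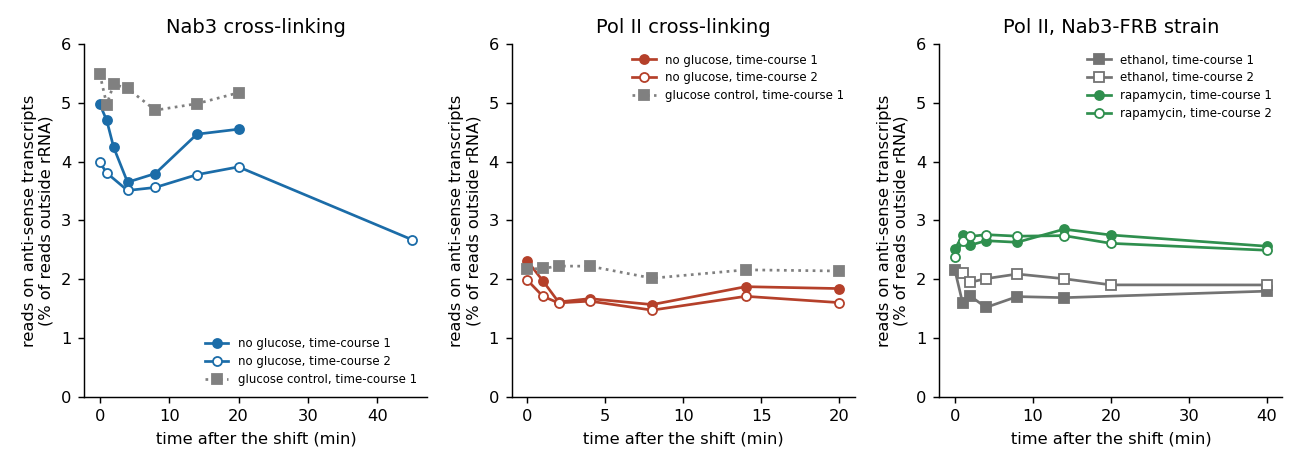
Share of the reads outside rRNA that lay on the 402 anti-sense transcripts (%, y axis) against nominal minutes after the shift (x axis), with 1 point per library, for Nab3, for Pol II and for Pol II in the Nab3-FRB strain. Without glucose the Nab3 share was lowest within the first 20 min at 4 min in both time-courses, and in the Nab3-FRB strain every rapamycin library after 0 min lay above every ethanol library.

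As a group the anti-sense transcripts took 4.97% and 3.99% of the Nab3 reads outside rRNA at 0 min. Without glucose their share was 3.65% and 3.51% at 4 min, 4.55% and 3.91% at 20 min, and 2.67% at 45 min, which only time-course 2 holds. In the control it lay between 4.87% and 5.49% throughout. In Pol II the share was 2.31% and 1.98% at 0 min and 1.57% and 1.47% at 8 min, against 2.02% to 2.22% in the control. The share without glucose was below that of the own 0 min library at every later time in all 4 time-courses. These shares are sums over members that hold very different numbers of reads, and the 10 members with the most reads took 22.6% to 32.2% of the member reads in the Nab3 time-courses.

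Without glucose, individual anti-sense transcripts moved far in Nab3 cross-linking, and in both directions. Of the 193 members with a value above 0 in all 12 libraries, 22 rose and 46 fell from 0 min to the mean of 8, 14 and 20 min (limma on log2(FPKM + 1), Benjamini-Hochberg adjusted over all features, threshold 0.05). This is 68 called members. Of all 4842 features tested, 35.1% were called (14.7% higher and 20.5% lower), so the share of members that changed was like that of the annotation as a whole. The median log2 change was -0.24 over the 193 members and -0.10 over all features. For comparison, CUTs had -0.67, XUTs -0.32, SUTs -0.28 and protein-coding features 0.17. The 209 members that were at 0 in some library were not tested.

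The largest rise was on Unit399 (chrXVI:829919-830649, 731 bases, minus strand), which lies within NCE102, a gene for a plasma membrane protein of eisosomes. Nab3 on Unit399 was 12.1, 4.89, 17.3, 9.50, 88.5, 55.8 and 40.9 FPKM at 0, 1, 2, 4, 8, 14 and 20 min of time-course 1. In time-course 2 it was 1.48, 28.4, 59.5, 41.2, 36.2, 33.4 and 20.5 FPKM at 0, 1, 4, 8, 14, 20 and 45 min. The late libraries lay above both 0 min libraries, and the control libraries lay between 7.22 and 15.8 FPKM. The log2 change was 3.06 ± 0.81 (SE, adjusted p = 0.014, limma). The 1.48 FPKM at 0 min of time-course 2 lies near the floor and rests on very few reads, so the size of this rise is uncertain.

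Unit97 (chrV:263470-265852, plus strand) runs across 96.2% of HIS1, the gene for the first enzyme of histidine synthesis. Its Nab3 level was 3.31 and 2.72 FPKM at 0 min, 16.7 and 49.8 at 14 min, and 56.8 and 104 at 20 min, and the control stayed between 1.16 and 5.56. The log2 change was 2.76 ± 0.54 (SE, adjusted p = 0.0035, limma). Unit14 (chrII:380491-381308, minus strand), opposite the uncharacterized gene YBR071W, had the highest level of the rising members. It was at 53.0 and 44.9 FPKM at 0 min, 439 and 425 at 14 min, and 547 and 544 at 20 min, and the control lay between 11.3 and 62.3. By 14 and 20 min it was the member with the most Nab3 reads in both time-courses, with 5.13% and 6.14% of all member reads at 20 min. The log2 change was 2.65 ± 0.33 (SE, adjusted p = 4.9e-04, limma).

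Unit333, within ATO2, a gene for a plasma membrane protein thought to export ammonium, rose by 2.05 ± 0.47 (log2, SE, adjusted p = 0.0071, limma), from 13.3 and 3.89 FPKM to 38.8 and 50.9 at 20 min. Unit294 (chrXIII:475735-480213) also rose, by 2.93 ± 0.52 (log2, SE, adjusted p = 0.0023, limma). However, 1900 of its 4479 bases lie within PGM2 on the same strand, the gene for the main phosphoglucomutase, which itself rose by 3.07 (adjusted p = 0.0023), and 2554 lie within YKU80. Its partner, YMR105W-A, covers 599 of its bases on the other strand. Reads of Unit294 and of these genes cannot be told apart by the counts. The other 4 of the 5 largest rises have no protein-coding feature on their own strand.

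The largest fall was on Unit45 (chrIV:216526-217175, minus strand), opposite ARF2, the gene for a small GTPase of Golgi transport. Nab3 on Unit45 was 118 and 56.6 FPKM at 0 min, 23.1 and 12.1 at 8 min, 9.77 and 7.71 at 14 min, and 20.5 and 1.91 at 20 min. In the control it was 85.0 to 168, so late libraries and controls did not overlap. Its log2 change was -2.90 ± 0.51 (SE, adjusted p = 0.0022, limma). Unit193, opposite SSY5, which encodes the protease of the plasma membrane amino acid sensor, fell by 2.67 ± 0.47 (log2, SE, adjusted p = 0.0023), from 14.4 and 19.4 FPKM to 1.80 and 0.973 at 20 min.

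Unit183, one of the 3 members with the highest Nab3 levels in glucose, was lower at each later time in both time-courses. It was at 372, 317, 197, 146, 94.6, 81.9 and 73.8 FPKM at 0, 1, 2, 4, 8, 14 and 20 min of time-course 1. In time-course 2 it was at 415, 309, 153, 84.6, 65.8, 32.7 and 21.6 FPKM at 0, 1, 4, 8, 14, 20 and 45 min. The control lay between 346 and 482 FPKM. Its late log2 change was -2.50 ± 0.34 (SE, adjusted p = 7.9e-04, limma). Its partner SNL1 was 4.68 and 9.0 FPKM at 0 min and 1.51 and 6.88 at 20 min, with a log2 change of -0.15 (adjusted p = 0.83). Unit222, opposite YKL107W, fell by 2.41 ± 0.53 (log2, SE, adjusted p = 0.0059, limma), and Unit196, opposite YJL118W, fell by 2.39 ± 0.31 (adjusted p = 5.6e-04). Of the bases of Unit196, 324 lie within YJL119C on the same strand.

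Unit247, opposite the nuclear pore gene POM33 and named in the study, stood close to the threshold. It was at 145 and 102 FPKM at 0 min, 80.4 and 53.8 at 1 min, 340 and 194 at 14 min, and 354 and 195 at 20 min, against 81.4 to 189 in the control. This was a log2 change of 0.84 ± 0.30 (SE, adjusted p = 0.0496, limma). The whole of Unit247 lies within a CUT, which counts the same reads.

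**Figure D2:**
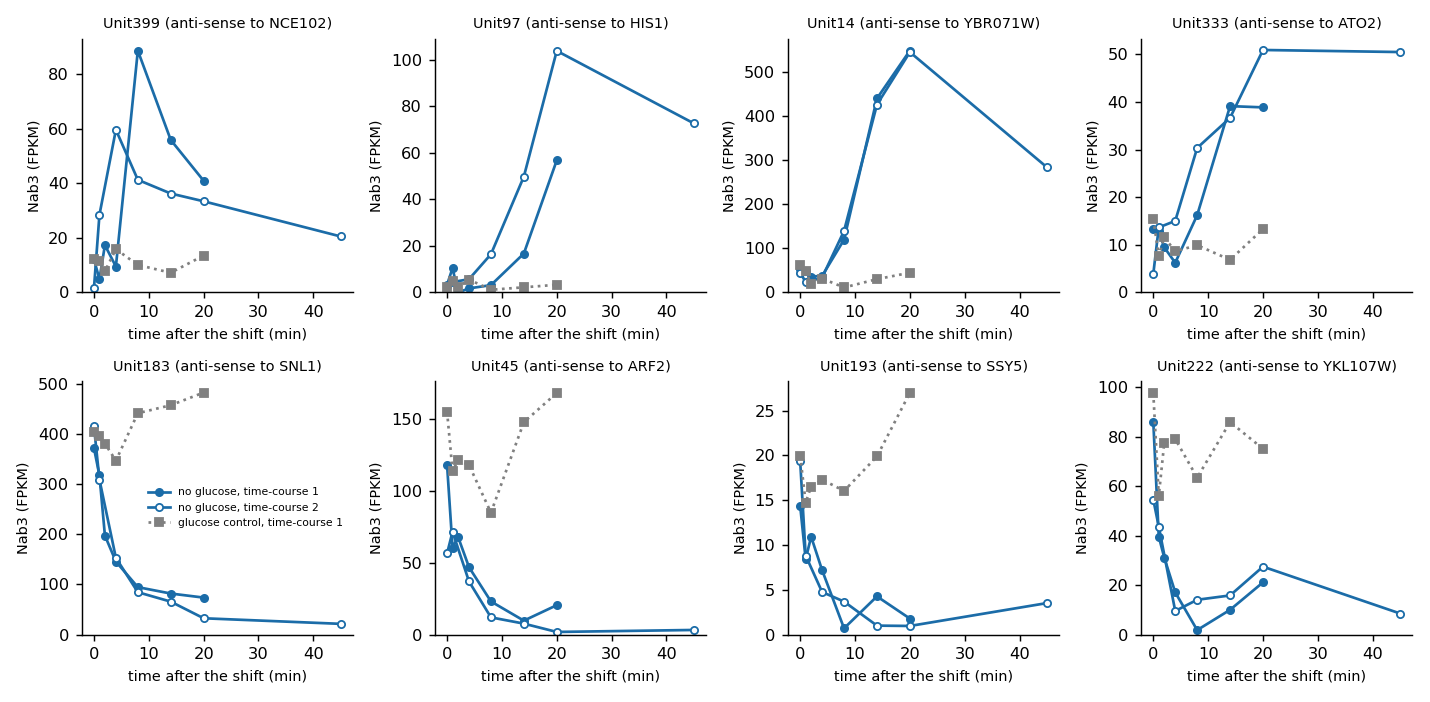
Nab3 cross-linking (FPKM, y axis, linear and from 0, with its own scale in each panel) against nominal minutes after the shift (x axis) for 8 anti-sense transcripts, with 1 point per library. Blue circles are the 2 time-courses without glucose and grey squares the control. The upper 4 rose and the lower 4 fell, and Unit14 reached 547 and 544 FPKM at 20 min while its control stayed between 11.3 and 62.3.

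Early changes were few after adjustment. From 0 min to the mean of 1 and 4 min, 1 member of 193 was called for Nab3, a rise, beside 0.929% of all features (0.496% higher and 0.434% lower), and 36 members had an unadjusted p under 0.05 (limma), as had 1117 of all 4842 features. The called member was Unit101, opposite HOR2, a gene for a glycerol-3-phosphatase. It was at 3.90 and 1.07 FPKM at 0 min, 24.8 and 20.0 at 1 min, 13.7 and 22.3 at 4 min, and 1.26 and 1.23 at 20 min, so both time-courses showed a pulse. Its log2 change was 2.71 ± 0.48 (SE, adjusted p = 0.040), and it was not called when the shallow 1 min library of time-course 1 was left out.

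The number of late Nab3 calls and their split depended on the time-courses and on the scaling. With time-course 1 left out 25 members were called, and with time-course 2 left out 0. With equal library medians, which moved the median of all features from -0.10 to 0.10, 31 members rose and 39 fell. With read counts per library size 46 of 255 tested members rose and 60 fell. After subtraction of the control 37 of 187 rose and 34 fell.

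**Figure D3:**
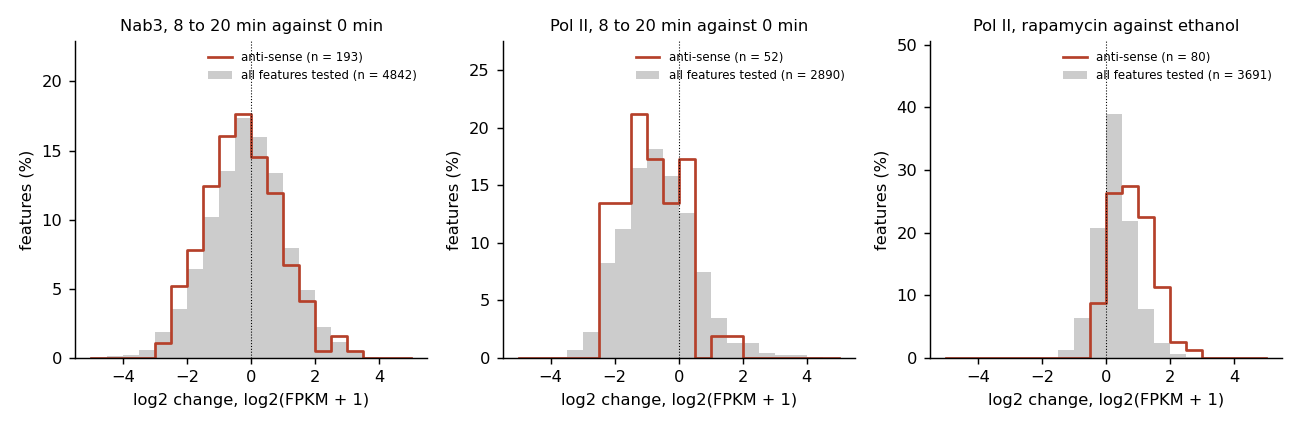
Distribution of log2 changes (x axis, on log2(FPKM + 1), in steps of 0.5) as a percentage of features (y axis), for anti-sense transcripts (red line) and all features tested (grey), in the late Nab3, late Pol II and rapamycin comparisons. In the rapamycin comparison the anti-sense transcripts lie to the right of all features, with medians of 0.71 and 0.28. CUTs, XUTs and SUTs, which are not drawn apart, had medians of 0.70, 0.84 and 0.72 there.

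In Pol II, the anti-sense transcripts that were called without glucose fell about as often as other features did, and the split between rises and falls depended on the scaling. Of 52 members above 0 in all 14 libraries, 1 rose and 18 fell from 0 min to the mean of 8, 14 and 20 min (limma). Over all 2890 features tested, 42.3% were called (7.2% higher and 35.1% lower), against 19 of the 52 members. The median log2 change was -0.99 over the members and -0.68 over all features, and for the 27 members with no protein-coding feature on their own strand it was -0.77, with 10 that fell. From 0 min to the mean of 1, 2 and 4 min, 0 members and 0 of all features were called, with 11 of the 52 members and 400 of all 2890 features at an unadjusted p under 0.05 (limma). Since 350 members were at 0 in some library, these 52 are the more abundant ones.

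Among the falls, Unit316, Unit360 and Unit17 have no gene on their own strand. Unit316 lies opposite MER1, a splicing regulator of meiosis. It was at 50.5 and 23.5 FPKM at 0 min, 2.58 and 9.60 at 8 min, 6.45 and 9.71 at 14 min, and 5.36 and 5.31 at 20 min, below both 0 min libraries throughout. Its late log2 change was -2.34 ± 0.75 (SE, adjusted p = 0.026, limma). Unit360, opposite RGS2, which encodes a negative regulator of glucose signalling through a G protein, was at 40.7 and 19.4 FPKM at 0 min and 11 and 1.46 at 20 min, a log2 change of -2.23 ± 0.54 (SE, adjusted p = 0.0064). Nab3 on these transcripts fell too, by 2.15 (adjusted p = 9.1e-04) for Unit316 and by 1.87 (adjusted p = 0.0026) for Unit360.

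Unit17 (chrII:429555-431814, plus strand) covers 99.5% of PHO5, the gene for the main secreted acid phosphatase, whose anti-sense RNA is known from other work. Pol II on it was 20.5 and 14.0 FPKM at 0 min, 3.21 and 1.99 at 8 min, 4.46 and 5.37 at 14 min, and 2.60 and 2.20 at 20 min, while the control lay between 4.00 and 8.70, in a table scaled to a smaller sum. This was a log2 change of -2.11 ± 0.56 (SE, adjusted p = 0.011, limma). A CUT and an XUT each cover most of Unit17 and count the same reads. Nab3 on Unit17 was 50.5 and 38.8 FPKM at 0 min and 29.5 and 21.0 at 20 min, and fell by 1.21 ± 0.38 (log2, SE, adjusted p = 0.030).

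Unit87 and Unit267 fell by 2.30 ± 0.37 (log2, SE, adjusted p = 8.4e-04) and by 2.26 ± 0.38 (adjusted p = 0.0011, limma), and both share reads with genes on their own strand. Of Unit267, 95.7% lies within RPS28B, a gene for a ribosomal protein, which itself fell by 2.31 (adjusted p = 7.1e-04). YDR524C-B, which shares 201 bases with Unit87, fell by 1.77 (adjusted p = 0.0041). The only member that rose was Unit294, by 1.79 ± 0.42 (log2, SE, adjusted p = 0.0056), and PGM2 on its strand rose by 2.85 (adjusted p = 0.0011). The late Pol II calls numbered 0 without time-course 1 and 9 without time-course 2, and 9 when the 2 libraries with most rRNA were left out. With equal library medians 3 rose and 7 fell, and with read counts per library size 11 of 99 tested members rose and 9 fell. The split thus did not hold. The median of the members minus that of all features was -0.30 with the scaling as deposited and -0.29 with read counts per library size. Equal library medians shift all features of a library alike, so they cannot change this difference.

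In Nab3, the ratio of the anti-sense transcript to the gene on the other strand fell in more pairs than it rose, as in the pairs of all classes. The log2 ratio of anti-sense to sense was fitted for pairs with both partners above 0 in every library. Of 68 such pairs, the ratio rose in 4 and fell in 15 (limma, adjusted over the 577 pairs of CUTs, XUTs, SUTs and anti-sense transcripts, of which 39.7% were called, 9.71% higher and 30% lower). The median log2 change of the ratio was -0.61 over the 68 pairs and -0.69 over all 577. In the 68 pairs the median change was -0.22 for the members and 0.40 for the partners. A lower ratio is therefore not by itself a loss of Nab3 on the anti-sense transcript. The other 334 pairs had a library at 0.

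The largest gain was Unit212 against HMS2, a gene related in sequence to heat shock transcription factors. The anti-sense transcript (chrX:703476-705248, minus strand) covers 77.4% of HMS2 and has no protein-coding feature on its own strand, but an XUT and a SUT cover all of it. Nab3 on Unit212 was 21.7 and 12.8 FPKM at 0 min, 38.9 and 34.3 at 14 min, and 34.4 and 46.6 at 20 min. On HMS2 it was 64.4 and 60.4 at 0 min, 12.7 and 16.3 at 14 min, and 19.2 and 5.47 at 20 min. In both time-courses the sense RNA held more Nab3 at 0 min and the anti-sense RNA held more from 8 min on. The ratio rose by 3.54 ± 0.62 (log2, SE, adjusted p = 5.4e-04, limma), of which Unit212 itself rose by 1.02 (adjusted p = 0.032) and HMS2 fell by 2.52 (adjusted p = 0.0028).

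**Figure D4:**
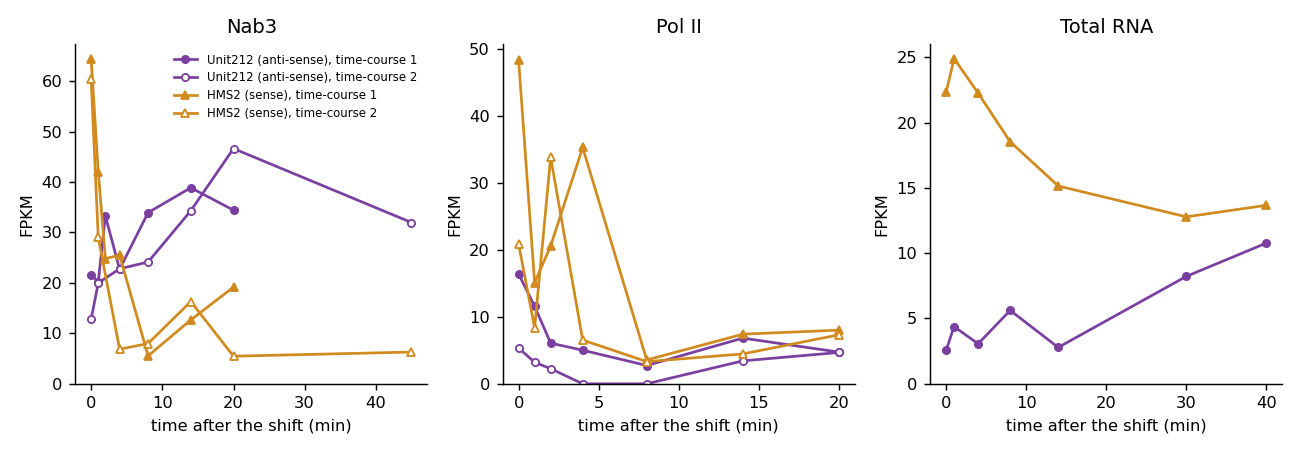
FPKM (y axis, from 0) of Unit212 (purple circles) and its sense partner HMS2 (orange triangles) against nominal minutes without glucose (x axis), for Nab3, Pol II and total RNA, with 1 point per library. For Nab3 the 2 RNAs cross between 0 and 8 min in both time-courses. In total RNA HMS2 stays above Unit212, at 13.7 against 10.8 FPKM at 40 min.

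Pol II on the same pair did not show this crossing. On Unit212 it was 16.4 and 5.34 FPKM at 0 min and 4.73 and 4.68 at 20 min, with 0 reads at 4 and 8 min of time-course 2, so it was not tested. On HMS2 it was 48.3 and 20.9 FPKM at 0 min and 8.01 and 7.32 at 20 min. In total RNA, with 1 library per time, Unit212 was at 2.56 FPKM at 0 min and 10.8 at 40 min (105 and 592 reads), and HMS2 was at 22.3 and 13.7.

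Unit97 gained on HIS1 by 2.63 ± 0.54 (log2, SE, adjusted p = 0.0016, limma). Nab3 on HIS1 was 33.4 and 30.6 FPKM at 0 min and 25.2 and 31.6 at 20 min, so the sense level stayed near its start while the anti-sense level rose past it. The 3 largest losses were Unit177 against COX5B, a cytochrome c oxidase subunit of low oxygen, by 3.10 ± 0.58, Unit176 against the multidrug transporter gene QDR2, by 2.91 ± 0.73, and Unit304 against URA10, a minor enzyme of pyrimidine synthesis, by 2.87 ± 0.56 (log2, SE, adjusted p from 7.6e-04 to 0.0057). In the pair of Unit177, the anti-sense level was 18.7 and 29.9 FPKM at 0 min and 8.80 and 15.0 at 20 min, and that of COX5B was 2.14 and 2.35 at 0 min and 19.4 and 8.54 at 20 min. COX5B itself rose by 1.98 (adjusted p = 0.0075). Its 0 min values lie near the floor and rest on few reads, so the size of this change is uncertain. The ratios of Unit103 to ICL1, the isocitrate lyase of the glyoxylate cycle, and of Unit276 to FBP1, the fructose-1,6-bisphosphatase of gluconeogenesis, were also among the 15 that fell, by 2.15 ± 0.55 and 1.57 ± 0.53 (adjusted p = 0.0059 and 0.026). Without time-course 1, 12 pairs were called, and without time-course 2, 1 was.

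Most tested partners of called members were not called, as was the case for all 4842 features, of which 35.1% were called. Of the 46 members on which Nab3 fell, 15 had a partner that was tested, and of these 1 rose, 5 fell and 9 were not called. Of the 22 that rose, 9 had a tested partner, and 2 rose, 1 fell and 6 were not called. NCE102, opposite Unit399, was one that rose, by 1.91 (adjusted p = 0.0047), from 36.7 and 26.5 FPKM at 0 min to 152 and 142 at 20 min, so both strands gained Nab3 at this locus. For comparison, of the 68 partners tested in all, 11 rose and 8 fell.

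In Pol II only 8 pairs could be tested, and 1 was called, beside 26.3% of the 57 pairs of all classes (8.77% higher and 17.5% lower). Unit12 lost ground to TIP1, a cell wall mannoprotein gene, by 2.26 ± 0.73 (log2, SE, adjusted p = 0.020, limma). The anti-sense level was 14.8 and 24.7 FPKM at 0 min and 3.28 and 5.41 at 20 min, whereas TIP1 was 36.4 and 39.4 at 0 min and 118 and 95.4 at 20 min. Unit12 itself fell by 1.80 (adjusted p = 0.0040), and TIP1 had a log2 change of 0.46 (adjusted p = 0.55). In Nab3 the ratio of Unit12 to TIP1 fell too, by 2.34 (log2, adjusted p = 0.0045, limma).

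With rapamycin, which draws Nab3 out of the nucleus, Pol II was higher on 27 of the 80 anti-sense transcripts tested. Each Nab3-FRB culture was reduced to its mean log2(FPKM + 1) over 1, 2, 4, 8, 14 and 40 min, and 2 rapamycin cultures were set against 2 ethanol cultures. Of 80 members above 0 in every library, 27 were higher with rapamycin and 0 lower (limma). With 2 cultures per treatment, limma drew the variance of each feature close to one pooled over all features. The SEs of the members lay between 0.364 and 0.406, so the p-values rest mainly on that pooled variance, not on the spread of each transcript. Over all 3691 features tested, 9.16% were called (8.48% higher and 0.677% lower). The shares were 33.8% of the anti-sense transcripts, 27.5% of CUTs, 28.9% of XUTs, 27.6% of SUTs and 6.10% of protein-coding features, and no test was run between the classes. The median log2 change was 0.71 over the 80 members, with 73 above 0, and 0.28 over all features. CUTs had a median of 0.70, XUTs 0.84, SUTs 0.72 and protein-coding features 0.29, so the other non-coding classes were shifted about as far. For the 50 members with no protein-coding feature on their own strand the median was 0.92, with 21 called.

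The largest difference was on Unit400 (chrXVI:900062-900488, minus strand), opposite SMX3, the gene for a core Sm protein of the spliceosome. Its culture means were 4.40 and 4.83 with ethanol and 7.11 and 7.26 with rapamycin, on the log2(FPKM + 1) scale. After 0 min, single libraries lay between 5.63 and 50.2 FPKM with ethanol and between 118 and 192 with rapamycin, so the libraries did not overlap. The log2 difference was 2.57 ± 0.37 (SE, adjusted p = 2.2e-06, limma). A CUT covers 414 of its 427 bases.

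Unit154, opposite the mitochondrial superoxide dismutase gene SOD2, had culture means of 3.08 and 4.30 with ethanol and 6.14 and 5.89 with rapamycin, a log2 difference of 2.33 ± 0.38 (SE, adjusted p = 3.1e-05, limma). Unit119, opposite the ribosomal protein gene RPS26A, had 3.25 and 4.67 against 6.19 and 6.03, a log2 difference of 2.15 ± 0.39 (adjusted p = 1.5e-04). Unit290, opposite CCS1, the gene for the copper chaperone of superoxide dismutase, had 1.96 and 3.12 against 4.54 and 4.38, a log2 difference of 1.92 ± 0.38 (adjusted p = 5.9e-04). Unit66, opposite TRS23, a subunit of a vesicle tethering complex, had 3.47 and 3.84 against 5.47 and 5.53, a log2 difference of 1.85 ± 0.37 (adjusted p = 5.6e-04). In each of the 5, both rapamycin cultures lay above both ethanol cultures, and none has a protein-coding feature on its own strand. A CUT covers all of Unit119, a SUT all of Unit154 and an XUT all of Unit290, and these count the same reads. For Unit66 a CUT covers 102 of 710 bases.

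**Figure D5:**
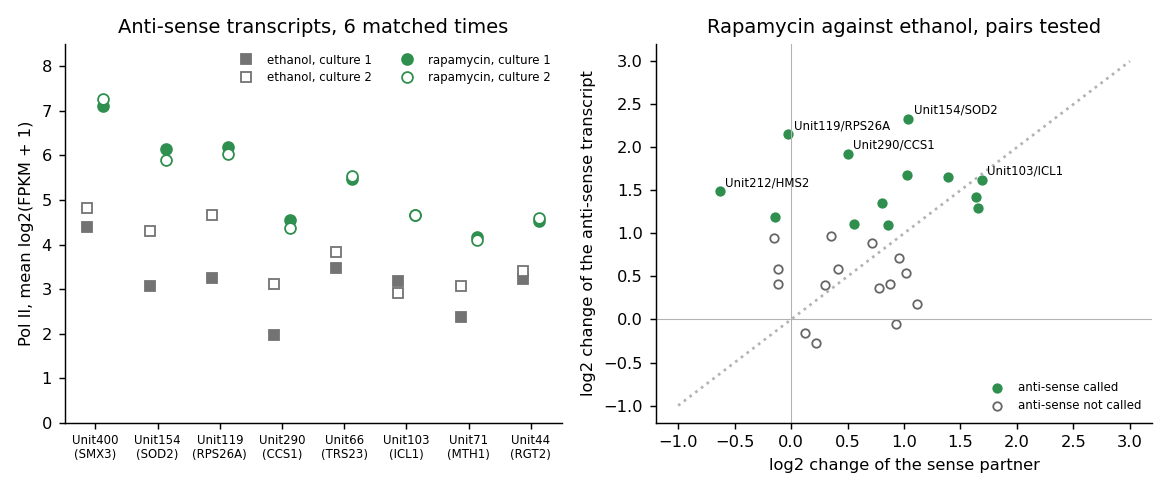
Left, mean log2(FPKM + 1) of Pol II per culture (y axis) for 8 anti-sense transcripts (x axis, partner in brackets), with 2 ethanol cultures as squares and 2 rapamycin cultures as circles. Right, the log2 change of the anti-sense transcript (y axis) against that of its sense partner (x axis) for the 28 pairs tested, with equal change as the dotted line. In all 8 transcripts the rapamycin cultures lie above the ethanol cultures, and Unit119, with 2.15, has a partner at -0.02.

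Of the 27 called members 13 had a tested partner, of which 4 were higher and 9 were not called, beside 8.48% of all features that were higher. Of all 28 tested partners the same 4 were called. They were the partners of Unit298 (RGM1), Unit71 (MTH1), Unit103 (ICL1) and Unit180 (MMF1). MTH1, a repressor in the glucose sensing pathway, was higher by 1.64 (adjusted p = 0.0029) beside 1.42 ± 0.37 for Unit71 (log2, SE, adjusted p = 0.0091), and ICL1 by 1.69 (adjusted p = 0.0017) beside 1.63 ± 0.37 for Unit103 (adjusted p = 0.0022, limma).

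When the ratio of anti-sense to sense was tested, 5 of 28 pairs were called, all with the anti-sense transcript gaining, beside 31.2% of 138 pairs of all classes (29% higher and 2.17% lower) (limma). The pairs of RPS26A (2.17 ± 0.45, adjusted p = 0.0044), HMS2 (2.12 ± 0.49, adjusted p = 0.0066), CCS1 (1.42 ± 0.40, adjusted p = 0.018), YPS3 (1.33 ± 0.39, adjusted p = 0.022) and SOD2 (1.29 ± 0.42, adjusted p = 0.030) were called. RPS26A itself had a log2 change of -0.02 (adjusted p = 0.98). It was at 49.5 to 300 FPKM from 1 to 8 min with ethanol and at 70.6 to 251 with rapamycin, which overlap, whereas Unit119 over the same times was at 10.5 to 51.5 and at 60.5 to 122. For HMS2 the culture means of the log2 ratio were -1.37 and 0.17 with ethanol and 1.43 and 1.60 with rapamycin. Unit212 itself was higher by 1.49 ± 0.38 (adjusted p = 0.0081) and HMS2 had a log2 change of -0.63 (adjusted p = 0.32). The median over the 28 anti-sense pairs was 0.21 and over all 138 it was 0.55, and no test was run between the classes. Unit262, opposite the aspartic protease gene YPS3, shares 102 bases with YLR120W-A on its own strand. With 1 culture left out, 0 to 6 pairs were called, and 0 without ethanol culture 1 and without either rapamycin culture.

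Late in the time-course, over 14 and 40 min alone, 8 of 132 members tested were higher and 0 lower, beside 1.72% of all features (limma). The shares called were 6.06% of the members, 5.06% of CUTs, 5.68% of XUTs, 7.46% of SUTs and 0.587% of protein-coding features. Unadjusted, 43 members had a p under 0.05, as had 1097 of all 5127 features. The 8 were Unit119, Unit154, Unit400, Unit48 (SNA4), Unit2 (GDH3), Unit3 (CYC3), Unit103 and Unit44, and their log2 differences ran from 1.80 to 2.62. With the replicate number as a block 16 were called.

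Over all matched times, 17 members were called without ethanol culture 1, 49 without ethanol culture 2, 5 without rapamycin culture 1 and 3 without rapamycin culture 2. With equal library medians, which moved the median of all features from 0.28 to -0.15, 1 was called, and with no detection filter 2 of 402. The median of the members was above that of all features by 0.42 with the scaling as deposited. Equal library medians shift all features of a library alike, so they cannot change this difference. With read counts per library size it was 0.41, over 265 tested members. Ribosomal RNA took 15.8% to 32.5% of the reads of the ethanol libraries and 13.9% to 23.3% of those with rapamycin, and ethanol culture 1 was the shallowest. The part of these in the result was not tested. Outside rRNA the members took 1.52% to 2.10% of the reads with ethanol after 0 min and 2.49% to 2.85% with rapamycin.

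In the strain without a tag on Nab3, rapamycin moved few anti-sense transcripts. With 1 library per condition there is no test, and a change was counted past 2-fold where a member had at least 10 reads in both libraries. At 0 min 2 of 275 members were higher with rapamycin and 1 lower (0.693% and 0.928% of all features), with a median log2 change of -0.06. At 14 min 1 of 168 was higher and 9 lower (0.754% and 3.35% of all features), with a median of -0.18. From 0 to 14 min without rapamycin, 31 of 160 members were higher and 29 lower in this strain (20.1% and 22% of all features). Counted the same way at 14 min, the Nab3-FRB strain had 11 higher and 3 lower of 32 in culture 1 and 19 higher and 3 lower of 98 in culture 2 (18.1% and 9.71% of all features were higher, and 11.8% and 4.28% lower). At 40 min it had 11 higher and 0 lower of 21, and 34 higher and 1 lower of 105 (28.9% and 16.1% of all features higher, and 9.97% and 1.26% lower). Unit400 was at 25.9 FPKM without and 25.5 with rapamycin at 14 min in the untagged strain, and Unit154 was at 38.3 and 36.7. Unit119 was at 71.4 and 37.7, and Unit66 at 48.1 and 69.1. These tables were not scaled to the same sum, and the anchors differ, so levels are not compared across strains.

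In total RNA, about as many anti-sense transcripts were higher as were lower at 40 min, whereas over all features more were lower. At 1 min 13 of 317 members were more than 2-fold higher and 37 lower than at 0 min (3.71% and 6.92% of all features), at 4 min 32 and 31 of 322 (7.25% and 5.67%), and at 8 min 28 and 48 of 292 (9.29% and 9.02%). At 14 min 36 of 328 were higher and 68 lower (10.3% and 13.4% of all features), at 30 min 68 and 56 of 332 (17.6% and 21.7%), and at 40 min 70 of 349 were higher and 68 lower (17.6% and 28.0%). The median log2 change at 40 min was -0.11 over the members, -0.29 over all features and -0.44 over protein-coding features. At 40 min 217 of 1052 XUTs were higher and 187 lower (median 0.07), and 136 and 113 of 624 SUTs (median 0.04). For CUTs it was 155 and 261 of 872 (median -0.30). The members were therefore not alone in having no surplus of falls. With 1 library per time these counts have no replicate check, and fewer cells with a transcript cannot be told apart from less of it per cell, here and in the cross-linking.

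The largest increases at 40 min were on Unit97, Unit137 and Unit294. Unit97, which also rose in Nab3, had 0.181, 2.78, 13.8 and 14.6 FPKM at 0, 14, 30 and 40 min (10 reads in the first of these libraries and 1080 in the last). HIS1 on the other strand was at 310, 133, 45.4 and 30.6 FPKM at these times. Unit137, opposite VPS62, had 0.527, 18.7 and 15.1 FPKM at 0, 14 and 40 min (16 reads in the first and 613 in the last), and VPS62 was at 4.93, 20.0 and 24.3. Unit137 has no gene on its own strand. Unit294 was at 8.45 and 105 FPKM, and PGM2 on the same strand was at 11.8 and 242.

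The largest decreases were on Unit275, Unit267 and Unit45. Unit275, opposite the glutaredoxin gene GRX8, was at 6.95 FPKM at 0 min and 0.308 at 40 min (135 and 8 reads, too few for the 2-fold count), and GRX8 was at 7.41 and 1.94. Unit267 was at 149 and 11.2, and RPS28B on the same strand was at 148 and 11.7. Unit45, which had the largest fall in Nab3, was at 6.84 and 0.546 FPKM (103 and 11 reads), while ARF2 was at 187 and 92.6. Nab3 and total RNA did not always run side by side. Unit399 was at 2.24 FPKM in total RNA at 0 min and 1.63 at 40 min while Nab3 on it rose. On Unit14 both rose. It was at 0.95 FPKM in total RNA at 0 min and at most 10.5 at 30 min, and Nab3 on it reached 547 FPKM at 20 min.

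Among genes of glucose uptake and glycolysis, 9 of the 36 listed genes have an annotated anti-sense transcript: CDC19, PGK1, RGT2, TPI1, MTH1, HXT5, GPM1, FBA1 and PDC1. Of these 9, 3 were tested in late Nab3 and 2 rose, beside 14.7% of all features. The 2 lie opposite the glucose sensor gene RGT2 and opposite MTH1. Unit44, opposite RGT2, was at 21.3 and 4.42 FPKM at 0 min and 47.6 and 20.6 at 20 min, a log2 change of 1.47 ± 0.41 (SE, adjusted p = 0.017, limma). Unit71, opposite MTH1, was at 14.6 and 6.40 FPKM at 0 min and 34.8 and 21.9 at 20 min, a log2 change of 1.57 ± 0.40 (adjusted p = 0.012). The same 2 members were tested with rapamycin, and both were higher, beside 8.48% of all features and 33.8% of the members tested. In total RNA these 2 were at 2.00 and 1.39 FPKM at 0 min and 1.35 and 1.00 at 40 min. Of the listed members with enough reads, 2 of 7 were more than 2-fold higher and 3 lower at 14 min (10.3% and 13.4% of all features). At 40 min 4 of 8 were higher and 0 lower (17.6% and 28.0%).

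For respiration, gluconeogenesis and the glyoxylate cycle, 6 of 43 genes have a member: ADY2, ICL1, CYC1, JEN1, FBP1 and CYB2. All 6 were tested in late Nab3, where 0 rose and 1 fell, Unit206 opposite the cytochrome c gene CYC1, by 1.44 (adjusted p = 0.0078, limma), while CYC1 itself fell by 2.08 (adjusted p = 0.0012). Unit206 overlaps a gene on its own strand. Of 3 tested in Pol II, 1 fell, Unit103 opposite ICL1. For reserve carbohydrates and stress, 8 of 32 genes have a member and 0 of 7 tested changed in Nab3, and the 1 tested with rapamycin, Unit154 opposite SOD2, was higher. For meiosis and sporulation, 7 of 50 genes have a member. Of 5 tested in Nab3, Unit150 opposite RIM4 rose and Unit316 opposite MER1 fell, and of 4 tested in Pol II 3 fell, those opposite MER1, SPS19 and SMK1, of which the last 2 overlap genes on their own strand. Heat shock genes had 1 member, opposite HSP30, which was not called in Nab3, and ribosome biogenesis genes had 0 of 53. Of 12 genes with anti-sense RNA known from other work, GAL10, PHO5, IME4 and HMS2 have a member, and of these PHO5 and HMS2 were tested and called in Nab3, in opposite directions. Of all features tested, 14.7% rose and 20.5% fell in late Nab3, and 7.2% rose and 35.1% fell in late Pol II. With rapamycin 8.48% were higher. A list with so few members allows no statement on the pathway.

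In the lamp comparison in glucose, the share of the members was higher in the Vari-X-linker library than in either Megatron library, with counting intervals that did not overlap. The members took 4.67% (95% Wilson interval 4.64% to 4.71%) and 4.43% (4.39% to 4.47%) of the reads of the 2 Megatron libraries and 5.86% (5.43% to 6.33%) of those of the Vari-X-linker library, which held 10350 reads, 607 of them on members. The intervals cover counting error only, and the Vari-X-linker share has no replicate in that table. In the glucose control time-course, cross-linked with the Vari-X-linker, the share outside rRNA was 4.87% to 5.49%, above both Megatron libraries, in which rRNA took 0.0092% and 0.0076% of the reads. In the 0 min libraries of the time-courses without glucose, taken before the shift, it was 4.97% and 3.99%. The second of these lies below both Megatron libraries, so the direction did not hold in all libraries. These tables were made separately, and the difference was not tested.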

How the data were processed

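Nab3, Pol II and total RNA libraries of yeast were used, 86 of 88 samples, and 3 columns of values that match no sample were left out. Per the labels and the methods, the authors collapsed cross-linking reads by their random barcodes and aligned them with Novoalign (2.0.4 in the submitters' processing notes). They counted reads per feature and placed reads with several matches at random. The processing and strand of the total RNA reads are not given in the sources used here. The values are FPKM as deposited, and the authors scaled the time-course tables to the same sum per table, so a change is relative to the other features of a library. FPKM times length gave whole reads in 100% of values (tolerance 0.1 read), on which read counts per library size were tested as an alternative.

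Changes were fitted with limma 3.58.1 in R 4.3.3 on log2(FPKM + 1), which understates changes of low features, for features above 0 in all libraries used. The time-course was a block, and p-values were adjusted over all features by the Benjamini-Hochberg method with a threshold of 0.05. The late change was the mean of 8, 14 and 20 min minus 0 min. Rapamycin was tested on 1 mean per culture. The fits were tested on simulated data. A pseudocount of 0.1, no filter, equal library medians, a Gaussian process model with a Bayes factor of at least 10, and leaving out each time-course or culture were also tried. Libraries with no replicate were counted at 2-fold with at least 10 reads in both.

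Named transcripts were the 5 largest called rises and falls of each comparison, the 5 largest called pairs, the 3 highest at 0 min in each assay, the 3 largest changes of total RNA at 40 min among members with at least 50 reads, Unit247, called members of the gene lists, and partners. The largest rises and falls had to have the same direction in both time-courses. For rapamycin, both rapamycin cultures had to lie on the same side of both ethanol cultures. Unit12, Unit101, Unit183 as a pair and the pairs of ICL1 and FBP1 were named with their values in view. The members, lists and rules were chosen with earlier results of these data known. Motifs and sequences were read from the RefSeq copy of R64 after start and stop codons of the deposited annotation were checked against it, with pandas 2.3.3 and numpy 2.4.6 in Python 3.11.15, and drawn with matplotlib 3.10.9. Intervals came from scipy 1.17.1.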

Additional observations from a re-analysis of the deposited data

Results flagged for a closer look

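The median log2 change of the anti-sense transcripts with rapamycin at 14 min had opposite signs in the strains. It was 0.7025 in culture 1 and 0.3360 in culture 2 of the Nab3-FRB strain, and -0.1771 in the strain without a tag on Nab3. Each value compares 1 library with 1 library, over 32, 98 and 168 members. The difference between the strains was not tested. The anchors, the solvent control and the scaling of the tables also differ between them, and these cannot be told apart from the tag.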

How the results depend on the processing

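The 49 results for single named transcripts had 408 values under alternatives. Of these, 270 stayed on the same side of the threshold, 138 lost the call with the same direction and 0 changed direction. The largest rises and falls were named only where the time-courses or cultures had the same direction. Leaving 1 out could therefore not reverse them, and the 0 is no check of direction there. The number of members tested differs between alternatives, so the counts below are not shares. For late Nab3 (68 of 193 called), 39 of 402 members were called with no filter and 106 of 255 with read counts per library size. With the Gaussian process model 129 were called, and 0 to 25 with 1 time-course left out. For early Nab3 (1 called), 0 were called with a pseudocount of 0.1, with no filter, without the block and with 1 time-course left out, 8 with read counts per library size, 3 with equal medians and 12 after subtraction of the control. For late Nab3 pairs (19 called), 1 to 12 were called with 1 time-course left out. For late Pol II (19 of 52 called), 10 of 27 were called among members with no gene on their own strand, and 34 of 398 with no filter. With equal medians 10 of 52 were called, 44 with the Gaussian process model and 0 to 9 with 1 time-course left out. For early Pol II (0 called), 2 were called with no filter and 1 with read counts per library size, and for late Pol II pairs (1 called), 0 to 1 with 1 time-course left out. For rapamycin over all times (27 called), 2 were called with no filter, 1 with equal medians and 3 to 49 with 1 culture left out, and for rapamycin pairs (5 called) 0 to 6. For rapamycin late (8 called), 5 were called with a pseudocount of 0.1, 0 with no filter, 0 with equal medians and 0 to 55 with 1 culture left out. Where 1 culture is left out, the lone culture is assumed to vary like the others. The cause of these changes was not tested.

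Some alternatives were chosen after seeing the data. Leaving out 1 min of Nab3 time-course 1 gave 0 early calls, leaving out 0 and 8 min of Pol II time-course 2 gave 9 late calls, and leaving out 2 min gave 15 rapamycin calls. Without the block of time-course, 52 members were called for late Nab3, 17 pairs for late Nab3 pairs and 17 members for late Pol II. Ethanol and rapamycin cultures of the same number had deviations with r = 0.02 across 3691 features, which are not independent, and share only a number. With that number as a block 25 members were called over all times, 6 pairs, and 16 members late. Shallow libraries limit the Pol II comparison, where 52 of 402 members had a read in all libraries.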
